A study of Rattus norvegicus with 38 samples.

Results

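Leukocyte RNA of rats killed 4 h after 1200 mg/kg acetaminophen was compared directly with that of rats killed 4 h after 15 mg/kg methyl parathion. The arrays were chosen by their titles, which give the chemical, the hour and a rat number, and they are 8 of the 38 arrays of the series, 1 array per rat. The 4 acetaminophen (AP) rats and the 4 methyl parathion (MP) rats were males of the CDF Fisher 344 strain, about 4 months old, with a single intraperitoneal dose suspended in vegetable oil. Beside them stand 4 vehicle rats for each chemical, given the oil alone and killed at 24 h, and the AP and MP rats killed at 12, 24 and 168 h (4, 4 and 3 per chemical). All animals were killed by focused microwave irradiation of the head, and blood was taken from the heart. Counted from the dose, the hour of killing is thus the same on both sides of the 4 h comparison, while the vehicle rats differ from it in hour.

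Acetaminophen relieves pain and fever, and in overdose its reactive metabolite depletes glutathione and kills liver cells. Methyl parathion is an organophosphate insecticide whose oxidised form inhibits acetylcholinesterase, so that acetylcholine accumulates at synapses. Blood leukocytes are a mixture of neutrophils, monocytes, T cells, B cells, natural killer cells and rarer granulocytes. Stress hormones, chiefly glucocorticoids, are known to change that mixture within hours, since lymphocytes leave the circulation and neutrophils enter it, and they also induce a set of genes within the cells themselves.

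Each level below is a log2 signal and each difference is AP minus MP on the log2 scale, given with its standard error (SE) from limma, a linear model whose spread was shared by all 38 arrays. The number of arrays limits the precision. Rose and fell, used of a gene or probe, mean higher and lower in AP than in MP rats and describe no change from vehicle. Of 26857 gene probes, 11083 had a signal-to-noise ratio of 3 or more in at least 3 arrays of a side and were tested. Median signals before scaling were 220.1 to 308.8 in AP rats and 217.3 to 316.3 in MP rats, and 40.7% to 45.1% and 38.4% to 51.6% of gene probes were above that limit. Some defining transcripts of the labelled cells were above it in all 8 arrays, among them Cd3d for T cells, Cd79b for B cells, Nkg7 for natural killer cells and S100a8 for neutrophils. Other markers were not. The B cell genes Ebf1, Fcer2 and Cxcr5 were above it in 5, 5 and 6 arrays, Cxcr1 of neutrophils in 4 and Cd28 of T cells in 0. Of platelets and red cell precursors, Ppbp and Alas2 were above it in all 8 arrays, while Selp was in 3 and Slc4a1 in 6.

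One array on each side was no closer to its own group than to the other group. AP rat 1 correlated more closely with the MP rats (mean Pearson's r over the tested probes, which share normalization, 0.965) than with the other AP rats (0.950). MP rat 4 was as close to the AP rats as to its own group (0.963 for both). The other 6 arrays correlated better with their own group. Their own-group values were 0.962, 0.952 and 0.952 for AP rats 2 to 4 and 0.954, 0.971 and 0.971 for MP rats 1 to 3. AP rat 1 was thus nearly as close to its group as AP rats 3 and 4, and MP rat 4 was closer to its group than MP rat 1. Among the probes that passed the test below, AP rat 1 was the AP rat nearest to the MP levels for 117 of the 146 higher probes (80.1%) and 143 of the 153 lower probes (93.5%). MP rat 4 was the MP rat nearest to the AP levels for 121 of the higher probes (82.9%) and 103 of the lower probes (67.3%). The labels of both rats were kept, and whether they name the right animals was not tested, which bears on every difference between AP and MP rats given here. Leaving out MP rat 4 ended the calls of 3 of the 40 named genes that passed, Rasl11b at 1.73 (adjusted p = 0.0646), Klf9 at 0.79 (adjusted p = 0.0514) and Resp18 at -0.87 (adjusted p = 0.051), and leaving out AP rat 1 ended none. AP rat 1 was singled out for its likeness to the MP rats, so that a wider gap without it follows from that choice and adds no support.

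AP and MP rats differed at 299 of 11083 probes (2.7%), of which 146 were higher (1.32%) and 153 lower (1.38%) in AP rats (limma, Benjamini-Hochberg adjusted p at most 0.05). Of the higher probes 64 differed by more than 1 log2 unit and 5 by more than 2, and of the lower probes 50 and 4 did. The higher probes included 61 genes with a known name, and the lower probes 47. All 4 AP rats lay above all 4 MP rats for 285 probes (2.57% of those tested) and below them for 601 (5.42%), and 57 of the higher and 72 of the lower probes that passed were among these. The median difference over all probes tested was -0.03.

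The number of probes that passed depended on single rats. The direction of the named genes that passed did not change with any rat left out. These genes were chosen because they passed with all rats, so that an unchanged direction follows largely from that choice and adds no support. With the same probes tested, 884 passed without AP rat 1 (422 higher, 3.81%, and 462 lower, 4.17%) and 470 without MP rat 4. These were the arrays no closer to their own group than to the other. The counts without AP rat 1 given below for gene lists stand beside these shares and, for the reason given above, add no support. Without AP rats 2 and 4, 23 and 63 passed, and without MP rats 2 and 3, 77 and 10 passed. Leaving out AP rat 3 or MP rat 1 left none past the threshold (1416 and 1300 at an unadjusted p under 0.05). A fit to the 8 arrays alone also called none (1761 at an unadjusted p under 0.05, smallest adjusted p 0.215). The same 8-array fit after quantile normalization of these arrays alone gave nearly the same result (none called, 1760 at an unadjusted p under 0.05). That normalization was not tried within the fit to all arrays. Scaling each array to its median instead of by quantiles left 1 probe and gave a median difference of all probes of -0.15, against -0.03. The calls were thus lost in a fit without the other groups and nearly all lost with median scaling, and why was not tested. Each named gene is given below with its range or its largest adjusted p over the 8 fits that leave out a rat.

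**Figure D1:**
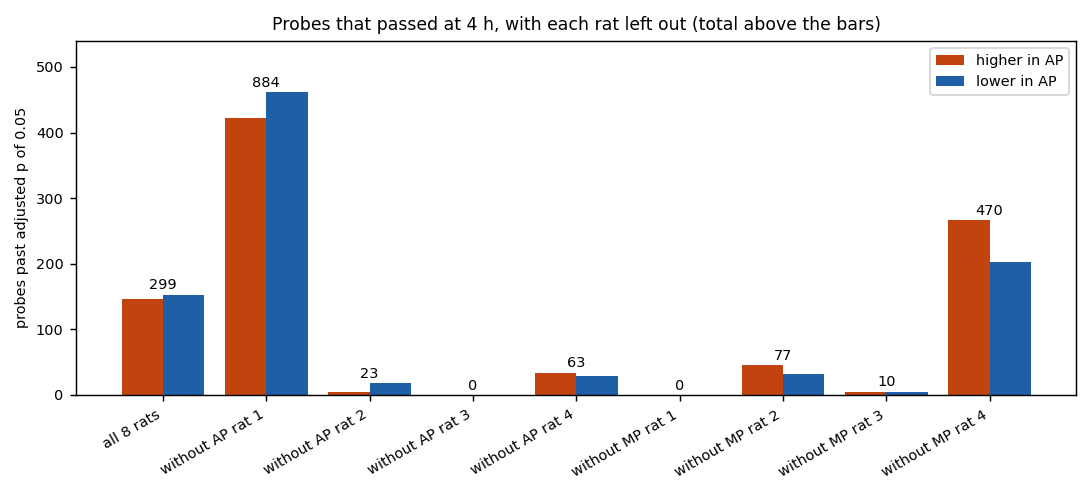
Number of probes past an adjusted p of 0.05 at 4 h (vertical axis) with all 8 rats and with each rat left out, split into probes higher and lower in acetaminophen (AP) than in methyl parathion (MP) rats. The total was 299 with all rats, 884 without AP rat 1, and 0 without AP rat 3 or without MP rat 1.

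The B cell genes Ebf1 and Cd79b fell in AP rats, and the T cell list had 1 member that fell. Of 18 B cell markers 4 had a named probe and were tested, and 2 of these 4 fell, when 1.38% of all probes did. Of the 4, 3 (Ebf1, Fcer2 and Cxcr5) passed the detection filter through the MP arrays alone, which favours a negative difference, so that no median or count of signs is given for them. Ebf1, a transcription factor that sets up the B cell programme, had log2 signals of 10.40, 6.40, 7.49 and 6.48 in AP rats 1 to 4, against 10.14, 10.29, 10.17 and 9.37 in MP rats 1 to 4. AP rat 1 lay above every MP rat, the other 3 AP rats were below all of them, and MP rat 4 was the lowest of its group. The difference was -2.30 ± 0.51 (SE; 4.92-fold lower, adjusted p = 0.0159), but Ebf1 was above the signal-to-noise limit in only 1 AP array, so that its fold is measured against a group mostly at background and is uncertain. Cd79b, a signalling chain of the B cell receptor, stood at 14.36, 12.30, 10.92 and 12.21 in AP rats 1 to 4, against 13.96, 14.38, 14.23 and 13.51 in MP rats 1 to 4. Again 3 AP rats were below all MP rats and AP rat 1 was among them, and the difference was -1.57 ± 0.38 (adjusted p = 0.024). Without AP rat 1 the difference of Cd79b was -2.21 (adjusted p = 1.72e-05), and that of Ebf1 would rest on AP arrays that were all below the limit. Over the 8 fits that leave out a rat Cd79b ran from -2.21 to -1.06, with adjusted p of Ebf1 and Cd79b up to 0.1 and 0.185. The other members with a probe, Fcer2, the low-affinity IgE receptor, and Cxcr5, a chemokine receptor that guides B cells to follicles, had differences of -1.52 ± 0.62 and -0.60 ± 0.35 and did not pass.

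Summed signals of the 4 B cell markers were 2606 to 25482 in AP rats and 13858 to 25551 in MP rats. In RNA of mixed blood cells, fewer cells of a type and less RNA of that type per cell cannot be told apart. MHC class II genes, which present peptides on B cells, monocytes and dendritic cells, were negative in 9 of 9 tested members, or 8 without MP rat 4, with 1 of the 9 tested through the MP arrays alone (median -0.40). None passed with all rats, and 5 of the 9 fell without AP rat 1, when 4.17% of all probes did. Their levels, as the median of log2 signal minus the mean of the 8 vehicle rats, were 0.22, -0.77, -1.02 and -0.99 in AP rats 1 to 4, against -0.26, -0.08, -0.05 and -0.28 in MP rats 1 to 4, so that AP rat 1 was the highest of all 8 and the other 3 AP rats the lowest. Ciita, the transactivator of these genes, had a difference of -1.29 ± 0.47 (adjusted p = 0.127), and Cd74, the invariant chain, -0.40 ± 0.18 (adjusted p = 0.255).

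Of 14 T cell markers tested, 1 of them through the MP arrays alone, Lat fell and the rest did not pass (median -0.39). Without AP rat 1, 2 fell. Of all probes 1.38% fell, or 4.17% without AP rat 1. Lat, the adaptor that links the T cell receptor to its signalling enzymes, read 15.16, 14.46, 14.16 and 14.85 in AP rats 1 to 4, against 15.54, 15.41, 15.49 and 15.01 in MP rats 1 to 4. AP rat 1 and MP rat 4 overlapped, and the other rats did not. The difference was -0.70 ± 0.20 (adjusted p = 0.047, range -0.87 to -0.54 with a rat left out, adjusted p up to 0.248). Cd40lg, the ligand by which T cells help B cells, had a difference of -0.86 ± 0.28 with groups that did not overlap (adjusted p = 0.088), and Cd3d, a chain of the receptor complex, one of -0.67 ± 0.23 (adjusted p = 0.11). None of 8 eosinophil, basophil and mast cell markers passed (median -0.66, with 1 of the 8 tested through the MP arrays alone). Rnase6 and Rnase3, ribonucleases of the family that includes eosinophil granule proteins, were lower in all 4 AP rats than in any MP rat, by -1.24 ± 0.44 and -1.17 ± 0.54, with adjusted p of 0.123 and 0.25.

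**Figure D2:**
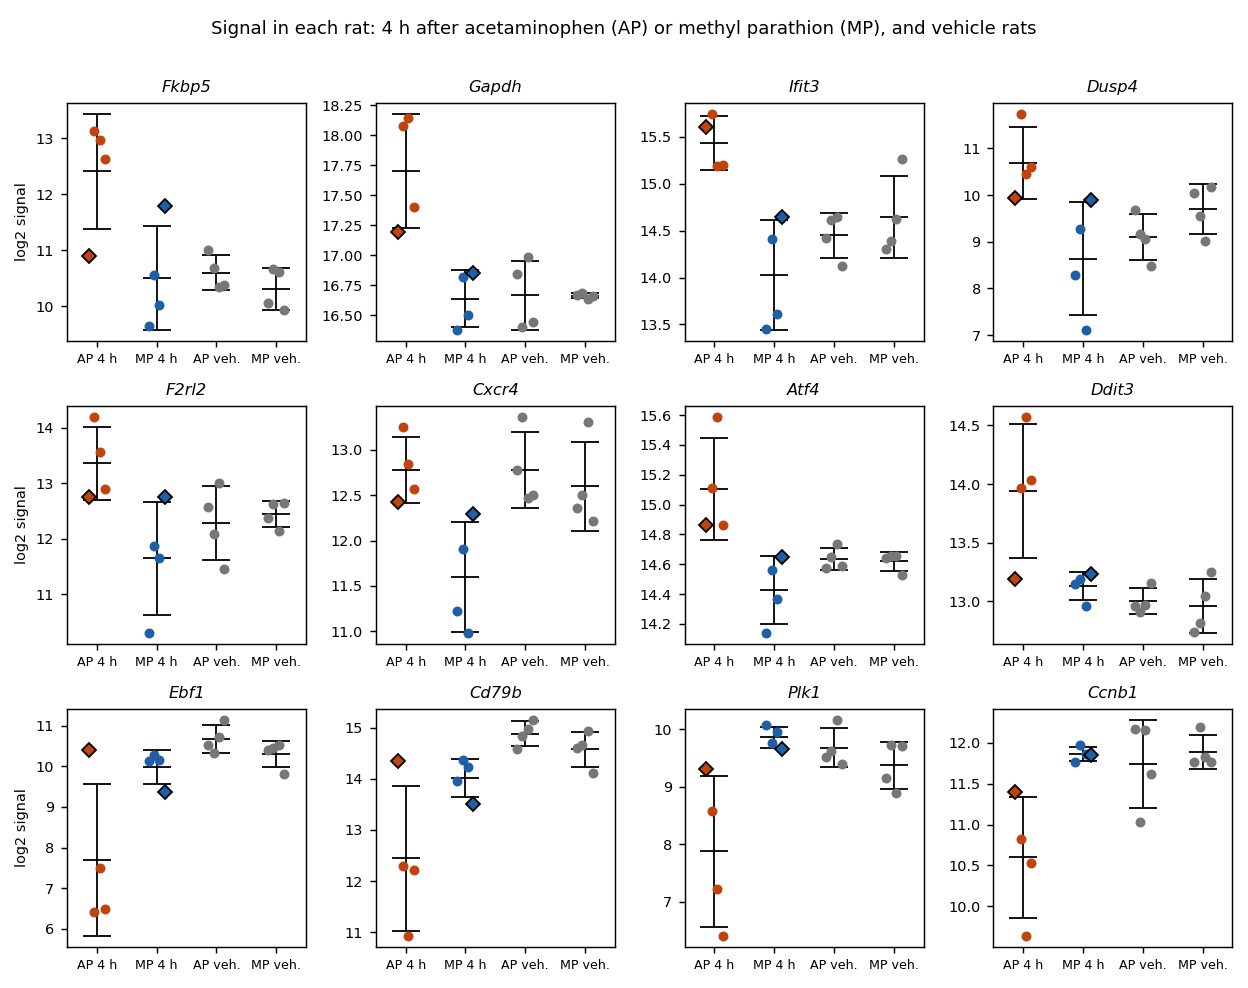
Log2 signal (vertical axis, scale differs by panel) of 12 genes in each rat of the acetaminophen (AP 4 h), methyl parathion (MP 4 h) and vehicle groups, with the mean and SD of each group of 4 in black. Diamonds mark AP rat 1 and MP rat 4. Ebf1 and Cd79b were low in AP rats 2 to 4 and not in AP rat 1, while Gapdh, Ifit3 and Atf4 were higher in all 4 AP rats than in any MP rat.

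Of 13 natural killer and cytotoxic cell markers 2 rose in AP rats, with 13 of 13 positive (12 with median scaling) and a median of 0.34. Without AP rat 1, 4 of the 13 rose. Over all probes 1.32% rose, or 3.81% without AP rat 1. Il2rb, the beta chain of the receptors for interleukin 2 and interleukin 15, had signals of 14.40, 15.16, 14.74 and 14.67 in AP rats 1 to 4, against 13.74, 14.12, 13.89 and 14.26 in MP rats 1 to 4. Every AP rat was above every MP rat, and the difference was 0.74 ± 0.15 (adjusted p = 0.0121). Klrg1, an inhibitory receptor of mature natural killer and effector T cells, read 12.43, 13.62, 13.71 and 13.58 in AP rats 1 to 4, against 12.29, 12.03, 12.47 and 12.74 in MP rats 1 to 4. AP rat 1 lay within the MP range and the other 3 AP rats above it, and the difference was 0.95 ± 0.27 (adjusted p = 0.0465), or 1.25 (adjusted p = 0.00155) without AP rat 1. Leaving out 1 rat took the adjusted p to as much as 0.0844 for Il2rb and 0.217 for Klrg1. Among the members that did not pass, Ccl5, a chemokine stored by cytotoxic cells, had a difference of 0.58 ± 0.19, and Gzmb, granzyme B, of 0.71 ± 0.29.

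None of 12 neutrophil markers passed, and their median was 0.08 (-0.05 with median scaling). Il1r2, a decoy receptor for interleukin 1 that glucocorticoids induce in neutrophils, had signals of 14.12, 16.40, 15.25 and 15.82 in AP rats 1 to 4, against 13.85, 13.53, 13.29 and 15.28 in MP rats 1 to 4. MP rat 4 was level with the AP rats, and the difference of 1.41 ± 0.53 did not pass (adjusted p = 0.143). Cxcr2, the receptor that draws neutrophils to chemokines, was at 1.03 ± 0.46 (adjusted p = 0.239), and Mmp8, the neutrophil collagenase, at 0.71 ± 0.39 (adjusted p = 0.359). Of 8 monocyte and macrophage markers F13a1 rose and 7 did not pass (median -0.13, 0.06 without MP rat 4), when 1.32% of all probes rose. F13a1, the A subunit of clotting factor XIII, which is known from platelets as well as monocytes, stood at 12.37, 14.42, 14.32 and 13.49 in AP rats 1 to 4, against 11.41, 11.98, 12.07 and 12.79 in MP rats 1 to 4. AP rats 2 to 4 were above all MP rats and AP rat 1 was below MP rat 4, with a difference of 1.59 ± 0.44 (adjusted p = 0.043), or 2.01 (adjusted p = 0.00258) without AP rat 1. Its adjusted p was at most 0.214 with 1 rat left out. The other monocyte members with the smallest p, Ctss, a lysosomal protease, Ccr2, a chemokine receptor, and Adgre1, a macrophage surface receptor, had differences of 0.32 ± 0.17, -0.53 ± 0.46 and -0.32 ± 0.28.

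Of 6 tested platelet markers 2 rose in AP rats, with 6 of 6 positive and a median of 1.43. Without AP rat 1, 5 of the 6 rose. Over all probes 1.32% rose, or 3.81% without AP rat 1. F2rl2, the thrombin receptor subunit PAR3, read 12.76, 14.20, 13.57 and 12.89 in AP rats 1 to 4, against 10.31, 11.88, 11.65 and 12.75 in MP rats 1 to 4. The lowest AP rat, rat 1, was only just above the highest MP rat, rat 4. The difference was 1.71 ± 0.41 (3.26-fold, adjusted p = 0.0232). Gp5, a subunit of the platelet receptor for von Willebrand factor, had signals of 10.14, 12.14, 12.00 and 11.22 in AP rats 1 to 4, against 9.53, 9.74, 9.04 and 10.73 in MP rats 1 to 4, with AP rat 1 below MP rat 4, and a difference of 1.61 ± 0.46 (adjusted p = 0.0496). Without AP rat 1 these differences were 1.90 (adjusted p = 0.00433) and 2.02 (adjusted p = 0.00483), and with any 1 rat left out the adjusted p was up to 0.148 and 0.222. P2ry12, the platelet receptor for ADP, and Ltbp1, a binding protein of latent TGF-beta, had differences of 1.30 ± 0.41 and 1.30 ± 0.41, with adjusted p of 0.075 and 0.0775.

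Summed over the 6 platelet markers, the signal was 25240 to 106986 in AP rats and 20198 to 36873 in MP rats. Their level relative to the vehicle rats was 0.49, 2.43, 2.29 and 1.63 in AP rats 1 to 4, against -0.06, 0.14, 0.23 and 1.0 in MP rats 1 to 4, so that MP rat 4 was above AP rat 1. The leukocytes were caught on a filter, and how many platelets came with them was not tested. Of 11 erythroid genes Nfe2 rose, and 9 were positive (median 0.42), while 2 rose without AP rat 1. The shares of all probes that rose were 1.32% with all rats and 3.81% without AP rat 1. Nfe2, a transcription factor of megakaryocytes and red cell precursors, was at 13.99, 14.96, 15.00 and 14.98 in AP rats 1 to 4, against 13.43, 13.45, 13.79 and 14.15 in MP rats 1 to 4. AP rat 1 was the only AP rat below MP rat 4, and the difference was 1.03 ± 0.24 (adjusted p = 0.0206, up to 0.122 with a rat left out). Alas2, the first enzyme of heme synthesis in red cell precursors, had a difference of 1.11 ± 0.43 with groups that did not overlap and did not pass (adjusted p = 0.16).

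**Figure D3:**
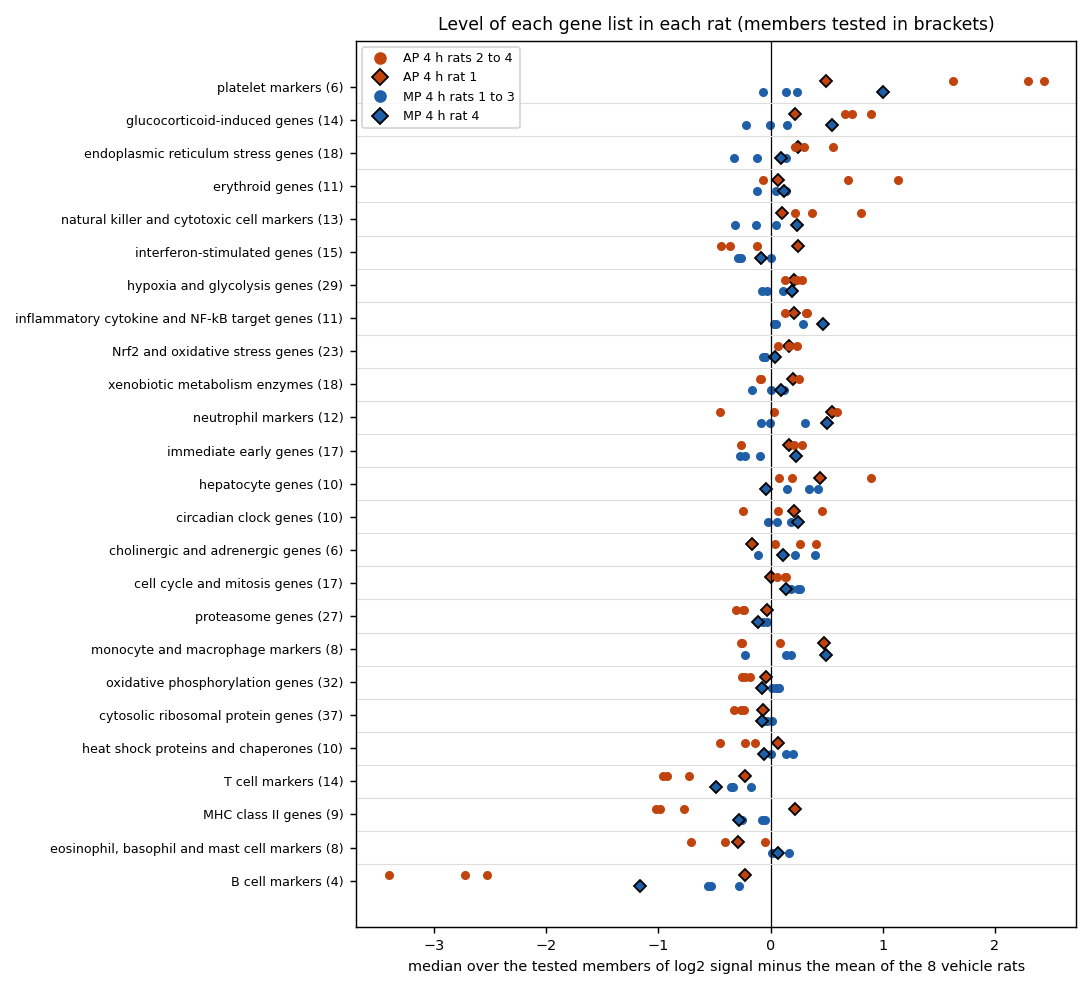
Level of each gene list in each rat, as the median over its tested members of log2 signal minus the mean of the 8 vehicle rats (horizontal axis), with AP rats above MP rats in each row and diamonds for AP rat 1 and MP rat 4. MHC class II genes were highest in AP rat 1 and lowest in the other AP rats, and platelet markers were at 1.0 in MP rat 4. The B cell row rests on 4 genes, 3 of them tested through the MP arrays alone.

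Of 14 tested genes that glucocorticoids induce 3 rose in AP rats and 11 did not pass, with 10 positive and a median of 0.61. One of the 14 was tested through the AP arrays alone, which favours a positive difference. Without AP rat 1, 6 rose. Over all probes 1.32% rose, or 3.81% without AP rat 1. Tgm2, a transglutaminase, was lower in all 4 AP rats than in any MP rat, at -0.67 (adjusted p = 0.242). Fkbp5, a co-chaperone that binds the glucocorticoid receptor and is among its most readily induced targets, read 10.89, 13.13, 12.97 and 12.62 in AP rats 1 to 4, against 9.66, 10.57, 10.03 and 11.79 in MP rats 1 to 4. AP rats 2 to 4 were above every MP rat, while AP rat 1 was below MP rat 4. In the vehicle rats it ranged from 10.35 to 11.01 (AP) and from 9.94 to 10.67 (MP). The difference was 1.90 ± 0.41 (3.72-fold, adjusted p = 0.0145), with 2.40 (adjusted p = 0.000148) without AP rat 1 and 2.32 (adjusted p = 0.00317) without MP rat 4. Klf9, a transcription factor that glucocorticoids induce, was at 14.03, 14.97, 15.34 and 14.90 in AP rats 1 to 4, against 14.06, 14.20, 13.81 and 14.02 in MP rats 1 to 4, so that AP rat 1 lay within the MP range. Its difference was 0.79 ± 0.22 (adjusted p = 0.0439). Txnip, an inhibitor of thioredoxin that also restrains glucose uptake, differed by 0.76 ± 0.20 (adjusted p = 0.0344), and Ddit4, an inhibitor of mTOR signalling, by 0.90 ± 0.26, which did not pass (adjusted p = 0.0553). Leaving out a rat took the adjusted p to as much as 0.108 for Fkbp5, 0.232 for Klf9 and 0.186 for Txnip.

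Glucocorticoid-induced genes stood at 0.21, 0.89, 0.73 and 0.66 in AP rats 1 to 4, against -0.0034, 0.15, -0.22 and 0.55 in MP rats 1 to 4, with AP rat 1 the lowest AP rat and MP rat 4 the highest MP rat, as for platelet markers. The part of the cell mixture in these values was not tested. Clock genes, which would follow the time of day, had no member past the test among 10, with 5 positive and a median of 0.01 (-0.08 with median scaling). The hours given here count from the dose, and whether the time of day was matched was not tested. Dbp, an output gene of the clock, had a difference of -0.57 ± 0.19 (adjusted p = 0.0867), and Bmal1, a core activator, 1.0 ± 0.53 (adjusted p = 0.331). Per1 was not analysed here.

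Of 18 genes of the endoplasmic reticulum (ER) stress response 4 rose in AP rats, 18 of 18 were positive (15 with median scaling, 17 without AP rat 1), and the median was 0.42, against -0.03 over all probes. Without AP rat 1, 4 of the 18 rose as well. Over all probes 1.32% rose, or 3.81% without AP rat 1. In this response unfolded protein in the ER activates sensors, one of which raises translation of Atf4, while ATF6 and XBP1 induce chaperones through a promoter element called ERSE. Atf4, the transcription factor of the branch that also senses lack of amino acids, read 14.86, 15.11, 15.59 and 14.86 in AP rats 1 to 4, against 14.14, 14.56, 14.36 and 14.65 in MP rats 1 to 4. All 4 AP rats were above all 4 MP rats, with a difference of 0.68 ± 0.13 (1.6-fold, adjusted p = 0.0115). Ddit3, the factor CHOP that Atf4 induces, stood at 13.19, 13.97, 14.57 and 14.03 in AP rats 1 to 4, against 13.15, 13.19, 12.97 and 13.23 in MP rats 1 to 4, with AP rat 1 within the MP range and the other 3 above it. It differed by 0.81 ± 0.19 (adjusted p = 0.0206). Dnajc3, an ER co-chaperone, had signals of 11.94, 12.71, 12.62 and 12.52 in AP rats 1 to 4, against 11.12, 11.61, 11.58 and 12.09 in MP rats 1 to 4 and a difference of 0.85 ± 0.18 (adjusted p = 0.0145), with AP rat 1 below MP rat 4. Calr, calreticulin, a calcium-binding chaperone of the ER, was at 12.31, 12.29, 12.37 and 12.43 in AP rats 1 to 4, against 11.08, 11.86, 11.58 and 11.67 in MP rats 1 to 4. It was nearly level among AP rats and higher in each than in any MP rat, by 0.80 ± 0.23 (adjusted p = 0.0473). Over the fits that leave out a rat the ranges were 0.52 to 0.76 for Atf4, 0.60 to 1.06 for Ddit3, 0.69 to 1.02 for Dnajc3 and 0.65 to 0.91 for Calr, with adjusted p up to 0.0938, 0.165, 0.101 and 0.233.

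The promoters of these 4 genes, from 250 bases before to 50 after the start in RefSeq annotation of GRCr8, were searched on both strands for ERSE, written as CCAAT, 9 bases of any kind and CCACG. It was found in Dnajc3 and Calr and not in Atf4 or Ddit3, and 0.07% of 33469 promoters of the same length held it. The 2 promoters with a match are printed 5′ to 3′ with the match in capitals, since they show the element on opposite strands. That of Dnajc3 spans chr15:102432417-102432716 on the plus strand, with the match starting 133 bases before the gene's start. That of Calr spans chr19:40213117-40213416 on the plus strand, with the match on the reverse strand, 232 bases before the start.
Dnajc3: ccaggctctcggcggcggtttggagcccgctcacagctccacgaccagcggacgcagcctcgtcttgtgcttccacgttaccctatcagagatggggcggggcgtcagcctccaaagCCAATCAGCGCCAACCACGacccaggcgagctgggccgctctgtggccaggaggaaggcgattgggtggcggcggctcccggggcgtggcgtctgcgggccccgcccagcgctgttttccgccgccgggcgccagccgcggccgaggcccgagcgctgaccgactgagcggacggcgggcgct
Calr: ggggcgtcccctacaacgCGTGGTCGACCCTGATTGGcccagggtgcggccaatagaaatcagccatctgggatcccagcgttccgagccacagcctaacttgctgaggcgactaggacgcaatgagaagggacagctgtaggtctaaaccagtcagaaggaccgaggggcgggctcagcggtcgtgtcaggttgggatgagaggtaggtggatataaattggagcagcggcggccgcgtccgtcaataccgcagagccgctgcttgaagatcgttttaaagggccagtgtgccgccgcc
A match is a description of the letters and no measurement of binding.

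One interferon-stimulated gene rose among 15 tested, when 1.32% of all probes did. The median of the list was 0.19 (-0.11 without AP rat 1) and 9 were positive. Ifit3, an antiviral protein with tetratricopeptide repeats, had signals of 15.60, 15.74, 15.19 and 15.19 in AP rats 1 to 4, against 13.45, 14.41, 13.62 and 14.65 in MP rats 1 to 4. The groups did not overlap, and the difference was 1.40 ± 0.28 (2.64-fold, adjusted p = 0.0121; 1.21 to 1.61 with a rat left out, adjusted p up to 0.0877). Against its own vehicle rats Ifit3 was at 0.98 in AP rats and -0.62 in MP rats. Rsad2 (viperin) and Oas1a, an oligoadenylate synthetase, lay above all MP rats in all 4 AP rats without passing, at 1.17 ± 0.43 and 0.71 ± 0.24 (adjusted p = 0.136 and 0.0908). Bst2 (tetherin), which holds virus particles at the cell surface, lay below them, at -0.85 ± 0.33 (adjusted p = 0.162), so that the list did not move one way. The promoter of Ifit3 is printed because interferon factors bind pairs of GAAA with 2 bases between them. Such a pair, searched on both strands, occurred in 3.92% of 33469 promoters. In Ifit3 it lies on the reverse strand, 44 bases before the start, in chr1:241527076-241527375 on the plus strand of GRCr8, and is shown in capitals.
Ifit3: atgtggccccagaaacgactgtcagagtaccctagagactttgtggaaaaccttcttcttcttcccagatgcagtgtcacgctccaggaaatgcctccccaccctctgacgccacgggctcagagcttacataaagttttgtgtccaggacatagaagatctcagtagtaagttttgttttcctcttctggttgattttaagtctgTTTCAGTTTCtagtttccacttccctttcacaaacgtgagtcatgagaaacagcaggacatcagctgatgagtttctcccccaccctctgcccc

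Immediate early genes, which respond to signals within an hour, had 2 of 17 members that rose, 9 positive and a median of 0.08. Without AP rat 1 the median was -0.10, with 3 that rose and 1 that fell. Of all probes 1.32% rose with all rats, and 3.81% rose and 4.17% fell without AP rat 1. The 2 members that rose with all rats were phosphatases that switch off MAP kinases in the nucleus. Dusp4 stood at 9.93, 11.75, 10.46 and 10.61 in AP rats 1 to 4, against 8.29, 9.28, 7.11 and 9.89 in MP rats 1 to 4. The lowest AP rat was just above the highest MP rat, and the difference was 2.04 ± 0.48 (adjusted p = 0.0206). Dusp4 was above the signal-to-noise limit in 3 AP and 2 MP arrays. It was thus tested through the AP arrays alone, which favours a positive difference, and 1 other member through the MP arrays alone. Dusp2 read 12.21, 13.17, 12.61 and 12.89 in AP rats 1 to 4, against 11.24, 11.95, 11.80 and 12.17 in MP rats 1 to 4, with AP rat 1 only just above MP rat 4, and differed by 0.93 ± 0.20 (adjusted p = 0.0159). With a rat left out the adjusted p was up to 0.118 for Dusp4 and 0.112 for Dusp2. Klf6, a zinc finger factor, and Myc, which drives cell growth, did not pass, at 0.57 ± 0.18 and -0.54 ± 0.18. In the list of inflammatory cytokines and NF-kB targets none of 11 passed (median 0.14, -0.01 with median scaling). Their members with the smallest p went both ways, with Tlr2, a receptor of bacterial lipoproteins, at 0.55 ± 0.22, Socs3, an inhibitor of cytokine signalling, at 0.95 ± 0.41, Nfkb2 at -0.43 ± 0.17 and Il1b, interleukin 1 beta, at -0.46 ± 0.29.

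Among genes of hypoxia and glycolysis 2 of 29 rose and 1 fell (median 0.18, 19 positive), when 1.32% of all probes rose and 1.38% fell. Gapdh, the glycolytic dehydrogenase of glyceraldehyde phosphate, had signals of 17.19, 18.08, 18.14 and 17.40 in AP rats 1 to 4, against 16.38, 16.82, 16.50 and 16.85 in MP rats 1 to 4. The groups were apart, and AP rats 2 and 3 stood higher than rats 1 and 4. The difference of 1.07 ± 0.19 (2.09-fold) had an adjusted p of 0.00475, the smallest that any probe reached and one shared by several, and ran from 0.92 to 1.24 with a rat left out (adjusted p up to 0.0671). Gapdh has many processed pseudogenes in the rat genome, and which copies the probe reads was not tested. Ldha, the lactate dehydrogenase subunit that turns pyruvate into lactate, read 15.26, 15.59, 15.22 and 15.14 in AP rats 1 to 4, against 14.19, 14.73, 14.74 and 15.09 in MP rats 1 to 4 and differed by 0.61 ± 0.15 (adjusted p = 0.0272). Pdha1, a subunit of the mitochondrial enzyme that turns pyruvate into acetyl-CoA instead, was also higher than in MP rats, by 1.07 ± 0.22 (adjusted p = 0.0131). It is in none of the lists. Against its own vehicle rats Pdha1 was at 0.27 in AP rats and -0.61 in MP rats, and neither change passed. Eno3, the muscle form of enolase, fell, with 14.21, 13.12, 12.58 and 13.29 in AP rats 1 to 4, against 14.45, 14.78, 14.55 and 14.11 in MP rats 1 to 4. AP rat 1 was within the MP range, and the difference was -1.17 ± 0.33 (adjusted p = 0.0491), or -1.48 (adjusted p = 0.00432) without AP rat 1. Leaving out a rat gave adjusted p up to 0.164, 0.0938 and 0.244 for Ldha, Pdha1 and Eno3.

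Nrf2 is the factor that answers oxidative stress, and 2 of 23 tested genes of its list rose, when 1.32% of all probes did. The median of the list was 0.11, or -0.07 with median scaling, and 14 were positive. Through the AP arrays alone 2 of the 23 were tested, which favours a positive difference. Gsr, which regenerates glutathione from its oxidised form, was at 11.65, 12.34, 11.83 and 12.15 in AP rats 1 to 4, against 10.64, 11.31, 10.90 and 11.51 in MP rats 1 to 4. Each AP rat exceeded each MP rat, and the difference was 0.91 ± 0.23 (adjusted p = 0.0283). Sqstm1 (p62), a cargo receptor of autophagy that also releases Nrf2 from its inhibitor, stood at 14.06, 14.11, 14.34 and 14.05 in AP rats 1 to 4, against 13.31, 13.63, 13.52 and 13.66 in MP rats 1 to 4, with all AP rats within a narrow range above all MP rats. It differed by 0.61 ± 0.14 (adjusted p = 0.0206). Their adjusted p with a rat left out was up to 0.146 for Gsr and 0.123 for Sqstm1. Gpx3, a secreted glutathione peroxidase, and Ftl1, the ferritin light chain, had groups that did not overlap and did not pass, at 1.56 ± 0.49 and 0.56 ± 0.20 (adjusted p = 0.0756 and 0.123). Hmox1, heme oxygenase 1, the most familiar target of Nrf2, had a difference of -0.10 ± 0.27 (adjusted p = 0.899). Its signals ranged from 11.43 to 12.18 in AP rats and from 11.57 to 12.21 in MP rats.

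Heat shock proteins and chaperones had no member past the test among 10 and a median of -0.23, with Hspe1, the mitochondrial co-chaperonin, at -0.46 ± 0.15 (adjusted p = 0.0809). Large sets of housekeeping genes had small negative medians and no member past the test. They were -0.22 for 37 cytosolic ribosomal protein genes, of which 4 were positive, -0.18 for 32 oxidative phosphorylation genes, of which 5 were positive, and -0.12 for 27 proteasome genes, of which 4 were positive. Without AP rat 1, 5 oxidative phosphorylation genes fell and 1 rose, when 4.17% of all probes fell and 3.81% rose. The member with the smallest p among them was Atp5pb, a stalk subunit of ATP synthase, at -0.44 ± 0.13 (adjusted p = 0.0632), with all 4 AP rats below all 4 MP rats.

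**Figure D4:**
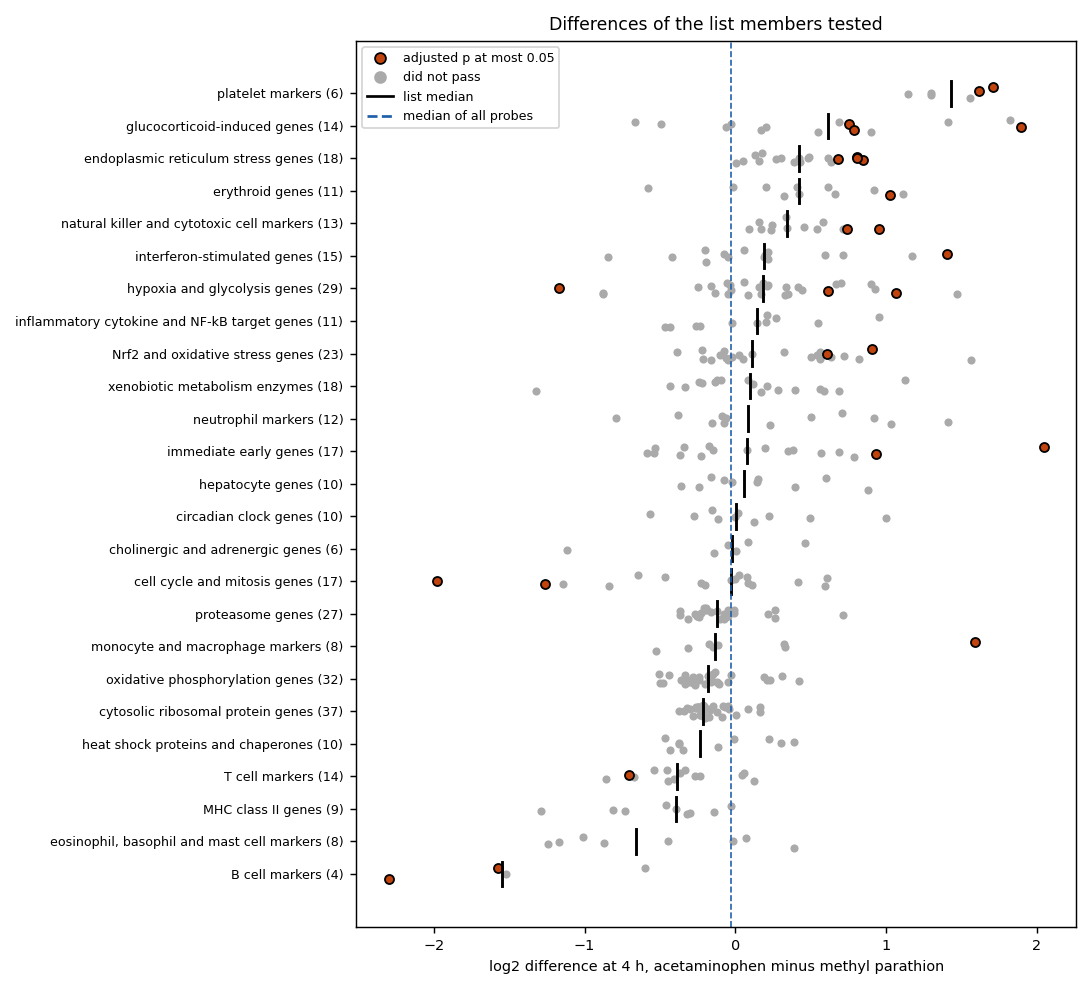
Log2 difference of each tested member of each list, acetaminophen minus methyl parathion at 4 h (horizontal axis), with members past an adjusted p of 0.05 in orange, list medians as black bars and the median of all probes dashed. All 18 ER stress genes (15 with median scaling) and all 6 platelet markers were positive. Of the 4 B cell markers 3, and of the 9 MHC class II genes 1, were tested through the MP arrays alone, which favours a negative difference.

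Among 17 cell cycle and mitosis genes 2 fell, when 1.38% of all probes did. The median was -0.03, that of all probes, with 7 positive. Of the 17, 2 were tested through the MP arrays alone, Plk1 among them, which favours a negative difference. Without MP rat 4 the median was -0.17 and without AP rat 1 -0.09. Plk1, a kinase needed for entry into mitosis, had signals of 9.31, 8.57, 7.22 and 6.40 in AP rats 1 to 4, against 10.07, 9.76, 9.95 and 9.66 in MP rats 1 to 4. The MP rats were close together and the AP rats spread over almost 3 log2 units below them. The difference was -1.98 ± 0.45 (adjusted p = 0.0192), but Plk1 was above the signal-to-noise limit in only 2 AP arrays. Ccnb1, cyclin B1, the partner of the mitotic kinase Cdk1, stood at 11.40, 10.83, 9.64 and 10.53 in AP rats 1 to 4, against 11.77, 11.97, 11.86 and 11.85 in MP rats 1 to 4, again tight in MP rats, and differed by -1.26 ± 0.30 (adjusted p = 0.021). With a rat left out these differences ran from -2.46 to -1.49 and -1.53 to -0.94, with adjusted p up to 0.122 and 0.175. Top2a, which untangles DNA, and Cdc20, an activator of the anaphase-promoting complex, were lower in all 4 AP rats than in any MP rat without passing, at -0.84 ± 0.35 and -0.65 ± 0.27.

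Among the 10 largest rises with groups that did not overlap, most belonged to no list. Rasl11b, a small GTPase of the Ras family, read 8.91, 9.87, 11.21 and 10.38 in AP rats 1 to 4, against 7.78, 8.43, 8.89 and 7.09 in MP rats 1 to 4 and differed by 2.05 ± 0.52 (adjusted p = 0.0302, above the signal-to-noise limit in 4 AP and 2 MP arrays). St3gal2, a sialyltransferase of the Golgi, was at 8.95, 9.98, 9.96 and 10.41 in AP rats 1 to 4, against 7.34, 8.90, 7.31 and 8.95 in MP rats 1 to 4, with 3 AP rats at about 10 and the fourth level with the highest MP rats, and differed by 1.70 ± 0.43 (adjusted p = 0.0291). Bcap31, a chaperone of the ER membrane, was higher by 1.23 ± 0.24 (adjusted p = 0.0121), at 14.76, 15.92, 15.45 and 15.41 in AP rats 1 to 4, against 13.55, 14.17, 14.25 and 14.66 in MP rats 1 to 4. Cxcr4, the receptor for the chemokine that holds leukocytes in bone marrow, stood at 12.43, 13.26, 12.85 and 12.57 in AP rats 1 to 4, against 11.22, 11.90, 10.98 and 12.29 in MP rats 1 to 4. The difference was 1.18 ± 0.28 (adjusted p = 0.0242), and a second probe of the gene gave 1.03 ± 0.25 (adjusted p = 0.0272). Against the vehicle rats Cxcr4 was at -1.0 in MP rats and at 12.78 beside 12.78 in AP rats and their vehicle. Ilk, a kinase at integrin adhesions, rose by 1.03 ± 0.22 (adjusted p = 0.0153). With a rat left out the adjusted p was up to 0.186 for Rasl11b, 0.145 for St3gal2, 0.0844 for Bcap31, 0.126 for Cxcr4 and 0.117 for Ilk. Rasl11b and St3gal2 were tested through the AP arrays alone, which favours a positive difference.

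Among the 10 largest falls with groups that did not overlap, AP rat 1 was the highest AP rat for each of the 10. Sag, the arrestin of photoreceptors, read 8.91, 7.58, 7.0 and 7.08 in AP rats 1 to 4, against 9.81, 9.33, 9.68 and 9.25 in MP rats 1 to 4 and differed by -1.87 ± 0.45 (adjusted p = 0.0241), but it was above the signal-to-noise limit in only 1 AP array. Trpv2, a cation channel of the plasma membrane, was at 10.37, 9.48, 7.77 and 9.46 in AP rats 1 to 4, against 10.73, 10.72, 10.89 and 10.62 in MP rats 1 to 4 and lower by -1.47 ± 0.31 (adjusted p = 0.0133), above that limit in 2 AP arrays. Emp3, a membrane protein with 4 spans found in leukocytes, stood at 15.43, 14.44, 14.06 and 14.53 in AP rats 1 to 4, against 15.84, 15.85, 15.74 and 15.49 in MP rats 1 to 4 and differed by -1.11 ± 0.20 (adjusted p = 0.00475). Nr1h3, the liver X receptor alpha that senses oxysterols, had signals of 12.76, 12.30, 11.36 and 12.39 in AP rats 1 to 4, against 13.56, 13.39, 13.24 and 12.99 in MP rats 1 to 4 and fell by 1.09 ± 0.30 (adjusted p = 0.0446). Against its own vehicle rats it was at -0.51 in AP rats and at 1.0 in MP rats. Cebpe, a factor of late granulocyte maturation, differed by -0.99 ± 0.26 (adjusted p = 0.034), at 11.59, 11.37, 9.93 and 11.17 in AP rats 1 to 4, against 12.14, 11.88, 12.03 and 11.97 in MP rats 1 to 4. Tmem176b, a membrane protein of dendritic cells and monocytes, was lower by -0.96 ± 0.21 (adjusted p = 0.0169), and stood at -0.41 in AP rats and 0.86 in MP rats against their vehicle rats. Anp32a, an inhibitor of phosphatase 2A, was at 11.84, 11.75, 10.78 and 10.86 in AP rats 1 to 4, against 12.37, 12.62, 12.10 and 12.82 in MP rats 1 to 4 and fell by 1.17 ± 0.25 (adjusted p = 0.0149), with AP rats 1 and 2 close to the lowest MP rat. Resp18, an ER protein of neuroendocrine cells, fell by 0.86 ± 0.24 (adjusted p = 0.0452). With a rat left out the adjusted p of these 8 genes was up to 0.0671 (Emp3) to 0.246 (Nr1h3). Sag and Trpv2 were tested through the MP arrays alone, which favours a negative difference.

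The cholinesterase genes Ache and Bche gave little signal in blood leukocytes. Ache, the acetylcholinesterase that methyl parathion inhibits as a protein, was above the signal-to-noise limit in 1 AP and 1 MP array and was not tested, with signals of 7.12 to 8.07 in AP rats and 7.13 to 8.74 in MP rats. Bche, the butyrylcholinesterase of plasma, was above it in no array of either group. Of 31 cholinergic and adrenergic genes on the array 16 were above the limit in none of the 8 arrays, and none of the 6 tested passed. Chrnb2, Adra2b and Maob of this list were above it in all 8. Of 31 hepatocyte genes on the array 14 were above the limit in none, among them Alb, albumin, while Apoc1, Ahsg, Fgb, Hp, Hpx and Tf were above it in all 8. None of the 10 tested passed (median 0.06, -0.08 with median scaling). Tf, transferrin, had a difference of 0.40 ± 0.21 (adjusted p = 0.334) and Orm1, an acute phase protein of plasma, 0.88 ± 0.71 (adjusted p = 0.569). Among 18 enzymes and transporters of xenobiotic metabolism none passed (median 0.10, -0.04 with median scaling), with Ephx1, the microsomal epoxide hydrolase, at 1.13 ± 0.33 (adjusted p = 0.0551) and Abcb1a, a drug efflux pump, at -1.32 ± 0.58 (adjusted p = 0.23).

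Each probe was also set against the vehicle rats of its own chemical. The 2 vehicle groups did not differ at any probe (limma, smallest adjusted p 0.174, 1243 at an unadjusted p under 0.05). Over the 146 higher probes the median change from vehicle was 0.81 in AP rats and -0.03 in MP rats, with a median vehicle difference of 0.06. Over the 153 lower probes the changes were -0.79 in AP rats and 0.13 in MP rats, with a vehicle difference of 0.16. Each change uses the rats that chose the probes, and the vehicle rats were killed at another hour, so that these medians are a description. Gapdh was at 1.04 from vehicle in AP rats and -0.02 in MP rats, and Ddit3 at 0.94 and 0.17. Dusp4 and Gsr lay on both sides, at 1.59 and 0.39 in AP rats and -1.06 and -0.52 in MP rats. So did Dusp2 and Il2rb, at 0.35 and 0.44 in AP rats and -0.40 and -0.31 in MP rats. A test of the difference between the changes from vehicle, which adds the spread of 8 more rats, called no probe (smallest adjusted p 0.118, 1798 at an unadjusted p under 0.05), and called 430 without AP rat 1. Within the same fit 926 probes differed between AP rats at 4 h and their vehicle rats, and none did between MP rats at 4 h and theirs (1299 at an unadjusted p under 0.05).

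More probes differed between the chemicals at 12 and 24 h than at 4 h, in other rats but in the same fit, and few did at 168 h. AP and MP rats differed at 3410 probes at 12 h (30.8% of the same 11083), at 4130 at 24 h (37.3%) and at 9 at 168 h (0.0812%), where each group had 3 rats and 1432 probes had an unadjusted p under 0.05. Of the 146 probes higher at 4 h, 61 (41.8%) were also higher at 12 h, when 16.1% of all probes were, and none was lower. These 61 made up 3.41% of the 1789 probes higher at 12 h. Of the 153 lower at 4 h, 77 (50.3%) were also lower at 12 h, when 14.6% of all probes were, and 5 were higher. These 77 were 4.75% of the 1621 lower at 12 h. With median scaling the probes that passed at 12 h were 1660 higher and 417 lower, so that the share of lower probes depends on the scaling. At 24 h, 42 of the higher probes (28.8%) were also higher, when 17.3% of all probes were, and 26 were lower. Of the lower probes 84 (54.9%) were also lower, when 20.0% of all were, and 8 were higher. The split over all probes at 24 h was 1916 higher and 2214 lower, or 2173 and 739 with median scaling. None of the 299 differed at 168 h. Every hour was tested with the same shared spread of a probe, and probes that passed at 4 h were chosen partly for a small spread. Such probes pass more easily at other hours too, in either direction. The shares of all probes are thus no fair baseline for these overlaps, and whether the overlaps exceed that effect was not tested.

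Gene by gene, the course after 4 h took several forms. Ifit3 was at 1.40 at 4 h, 2.26 at 12 h and 2.73 at 24 h, Gapdh at 1.07, 1.13 and 1.28, and Gsr at 0.91, 1.41 and 1.33, all past the test at each of these hours. Dnajc3 and Calr also passed at all 3, at 0.55 and 0.75 at 24 h, while Atf4 and Ddit3 passed at 4 and 12 h and were at 0.31 and 0.01 at 24 h. The 2 cytotoxic markers that passed at 4 h were lower in AP rats at 24 h, since Il2rb was at 0.74 at 4 h, 0.15 at 12 h and -1.21 at 24 h, and Klrg1 at 0.95, -0.23 and -1.86, with the 24 h values past the test (adjusted p = 6.64e-08 and 1.16e-06). Klf9 and Dusp2 were likewise negative, at -1.06 and -1.04 at 24 h. Ebf1 was at -2.30 at 4 h, -0.12 at 12 h and -2.41 at 24 h, and Cd79b at -1.57, -0.88 and -2.29, neither past the test at 12 h. Fkbp5, at 1.90 at 4 h, was at 0.52 and 0.92 at 12 and 24 h and passed at neither. Neutrophil markers, with a median of 0.08 at 4 h, had medians of 1.49 at 12 h and 2.65 at 24 h. Whether single genes differed more at one hour than at another was not tested.

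**Figure D5:**
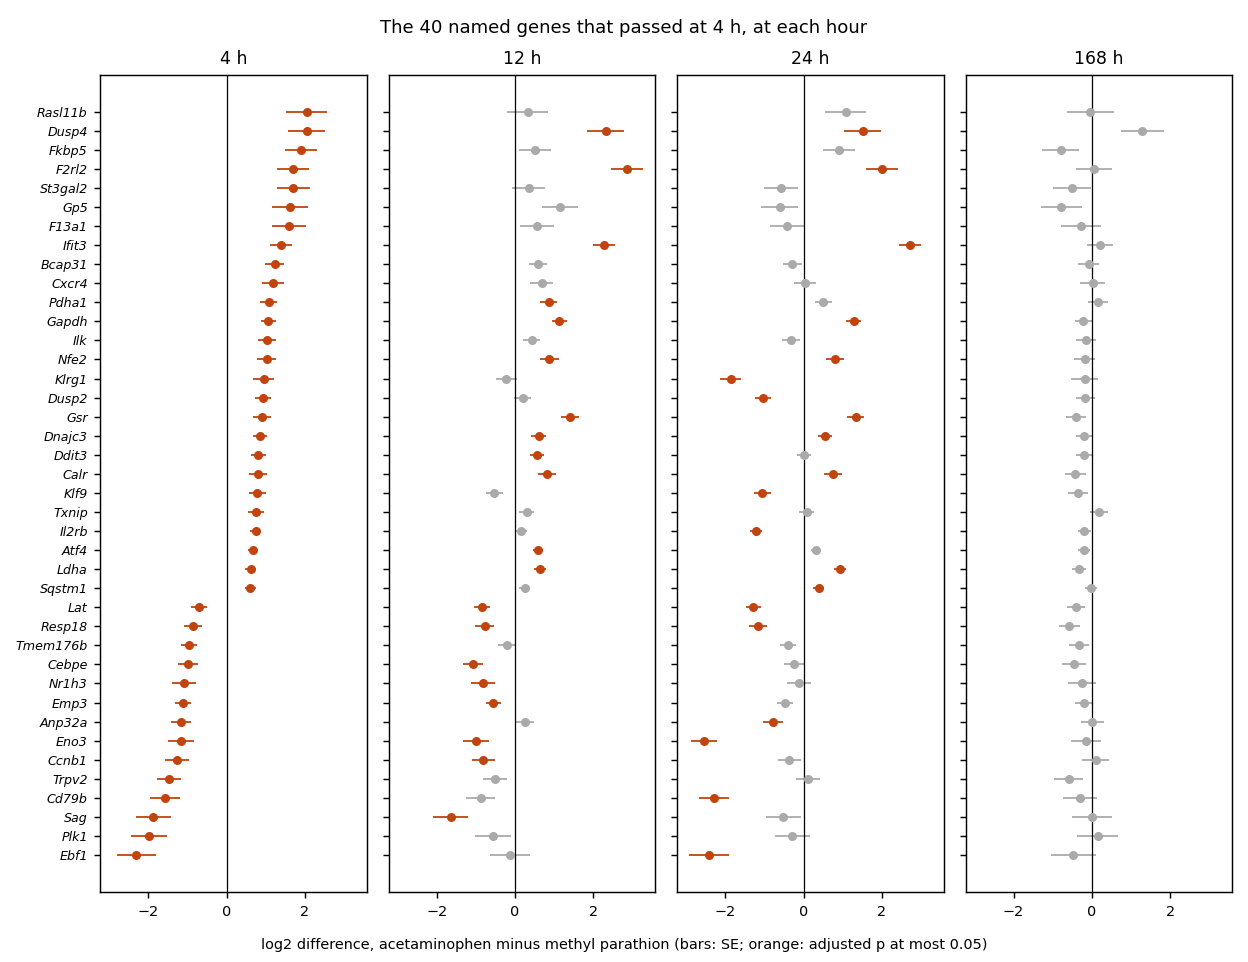
Log2 difference, acetaminophen minus methyl parathion, of the 40 named genes that passed at 4 h, in the rats killed at 4, 12, 24 and 168 h (one panel each, SE bars, orange where the adjusted p was at most 0.05). Ifit3, Gapdh and Gsr were positive and past the test at 4, 12 and 24 h, Il2rb and Klrg1 were positive at 4 h and negative at 24 h, and none of the 40 passed at 168 h.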

How the data were processed

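Leukocyte RNA was isolated on a filter with depletion of globin mRNA, per the labels' protocols, and cRNA carrying digoxygenin was hybridised to single-channel Applied Biosystems arrays. The authors deposited a linear intensity, a signal-to-noise score and a quality flag per spot (the flag is of other kind, with no unit). In the deposited series table the values are log2, and they matched quantile-normalized signals on that scale to within 5e-09. Scan dates and slides are not given in the sources used here, so that no batch was tested.

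Of 26857 gene probes 6104 had exactly 1 symbol, 70 several and 20683 none, which gave 3119 tested probes of 3069 named genes. The 322 control spots stayed out. Values below the 5th percentile (log2 6.40) were raised to it, and flags of at least 5000 made a spot missing (0.96%). One factor of 10 groups was fitted to 38 arrays with limma 3.58.1 (R 4.3.3, mean-dependent prior, 28 residual degrees of freedom), two-sided, adjusted by Benjamini-Hochberg over 11083 probes, with at least 2 values a side. The fit was tested on simulated data. Rats are separate animals, and their numbers pair nothing: deviations of same-numbered AP and MP rats correlated at -0.30, 0.15, 0.01 and -0.25.

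The gene lists and rules were chosen with earlier results of these data known. Named genes are the 10 largest differences each way among probes that passed with groups that did not overlap (1 symbol, 1 probe a gene), the 4 members with the smallest p of each of 25 lists, and Ache, Bche, Fkbp5, Per1 and Hmox1. Lists were described by counts and medians, without a set test. Tested through the AP arrays alone were also 1 neutrophil, 1 heat shock, 1 hepatocyte, 1 hypoxia and glycolysis and 2 xenobiotic members. Through the MP arrays alone came 1 erythroid, 1 cholinergic, 2 clock, 2 hypoxia and glycolysis and 2 xenobiotic members. Promoters came from RefSeq (GRCr8).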

Additional observations from a re-analysis of the deposited data

Results flagged for a closer look

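Among 80 groups of 4 rats (40 named genes that passed, AP and MP rats at 4 h), 3 held a rat whose gap to its nearest neighbour exceeded Dixon's critical share of the group's range. Chance flags about 1 in 20 groups, so that 3 of 80 are no more than chance alone would flag. Ebf1 was at 9.37 in MP rat 4, against 10.14 to 10.29 in the other MP rats. Klrg1 was at 12.43 in AP rat 1, against 13.58 to 13.71 in the other AP rats. Nfe2 was at 13.99 in AP rat 1, against 14.96 to 15.00 in the other AP rats. All 3 values belong to AP rat 1 or MP rat 4, and each lay on the side of the other chemical. The genes share the same rats and were chosen because they passed, so that these flags add no support for setting those rats apart. The difference between the changes from vehicle did not pass for any named gene (smallest adjusted p 0.118).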

How the results depend on the processing

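The count of probes that differed between AP and MP rats at 4 h (299) changed with the fit. It was 1 with median centring and 0 in a fit to only the 8 arrays, whether or not these were quantile-normalized alone. It was 34 with the 16 arrays at 4 h and of the vehicle groups, 108 with no detection filter, 177 with a constant variance prior and 1173 with array weights. It stayed within 1.5 times with no floor (299), detection in all 4 arrays of a side (330), flagged spots kept (290) and raw median signal as covariate (351). With the rat number as a replicate block it was 226, of which 221 were among the 299. Leaving out each rat gave 0 to 884. The count for the difference between the changes from vehicle was 0, and 0 to 430 with a rat left out, 1057 with array weights and 0 in the other fits, the replicate block included. With array weights 1089 probes also differed between the vehicle groups, which had received the same oil. The cause of these changes was not tested, except that fits to fewer arrays have fewer degrees of freedom. Of the 40 named genes that passed, none changed direction under the 20 alternatives, which follows largely from choosing genes that passed. Calls were kept in 413 and lost in 386 of the pairs of gene and alternative. Uncalled Chrnb2 reversed to -0.032 with median centring, -0.051 with array weights and to between -0.051 and -0.020 without AP rat 3, AP rat 4 or MP rat 1 (-0.051 to 0.280 over all rats left out), and uncalled Hmox1 to 0.021 without AP rat 1 (-0.228 to 0.021). Signal over background limits Ebf1, Sag, Plk1, Trpv2, Dusp4, Rasl11b and St3gal2, which were above the limit in at most 2 arrays of a side. Each was tested through the other side alone, which favours the sign that it had.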

Other observations

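Several named genes that passed lay outside the lists and the rule on large differences, and were chosen here after their values were seen. Higher in AP rats were Gnaz, a G protein subunit abundant in platelets, at 1.80, Pla1a, a phospholipase specific for phosphatidylserine, at 1.65, Pdlim1, a cytoskeletal adaptor, at 1.45, Cd151, a tetraspanin of platelets and other cells, at 1.33, Slc40a1, the iron exporter ferroportin, at 1.30, and Ifngr1, a chain of the interferon gamma receptor, at 1.08 log2 units. Lower were Ell3, an elongation factor of RNA polymerase II expressed in B cells, at -1.64, Ltb, lymphotoxin beta, at -0.92, Bin1, a membrane-bending adaptor, at -0.90, and Tcf4, a transcription factor of B cells and plasmacytoid dendritic cells, at -0.78. With 1 rat left out, 2 to 4 of the 8 fits called each of these 10 genes. None changed direction, which follows largely from choosing genes that passed. The largest adjusted p was 0.101 for Ifngr1, 0.108 for Ell3, 0.123 for Cd151, 0.129 for Pla1a, 0.136 for Pdlim1, 0.186 for Ltb, 0.206 for Slc40a1, 0.22 for Gnaz, 0.222 for Bin1 and 0.23 for Tcf4.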
